A study of Mus musculus with 20 samples.

Results

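Hepatic DNA methylation was examined at 44 developmental transcription factor genes outside the Hox clusters, of 55304 genes annotated in GENCODE M21. They were Pax1, Pax2, Pax3, Pax6, Pax7, Pax8, Pax9, Six2, Six3, Six6, Lhx1 to Lhx6, Lhx8, Lhx9, Nkx2-1, Nkx2-2, Nkx2-3, Nkx2-5, Nkx6-1, Nkx6-2, Dlx1 to Dlx6, Otx1, Otx2, Gbx2, En1, En2, Emx1, Emx2, Msx1, Msx2, Olig1, Olig2, Neurog1, Neurog2 and Neurog3. The genes were listed by name as silent in liver, and the files hold no RNA values, so their silence was not tested here. For each gene the CpGs from 5 kb upstream of the transcription start site (TSS) to the gene end were taken, and those with at least 10 reads in at least 3 libraries of every group were kept. This left 4569 CpGs, from 20 to 215 per gene, and no CpG was shared by 2 of the genes.

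These genes encode DNA-binding proteins that pattern the embryo. Pax proteins carry a paired domain, the products of the Lhx, Nkx, Dlx, Otx, Gbx, En, Emx and Msx genes and of Six2 and its relatives a homeodomain, and the Olig and Neurog proteins a basic helix-loop-helix domain. Each is used in a few tissues, such as the neural tube, eye, kidney, thyroid, heart or endocrine pancreas, and is off in most others. Genes of this kind typically start within long CpG islands, stretches rich in CG dinucleotides that stay largely free of methylation, and in tissues where they are off they are classic targets of Polycomb repressors. DNA methylation is the addition of a methyl group to the cytosine of a CpG.

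The 20 libraries came from livers of wild-type C57BL/6J mice labelled male, 5 in each of 4 groups. Con-d0 and Con-d21 are offspring of dams on a control diet, taken on the day of birth and at weaning on day 21. AME-d0 and AME-d21 are offspring of dams exposed to an adverse maternal environment (AME), which combined a Western diet begun before pregnancy and kept through lactation with stress late in gestation. Offspring of d0 were taken by C-section and those of d21 after natural birth and lactation, so mode of birth and age cannot be told apart. DNA came from liver without cell sorting, so hepatocytes, blood cells and other cells are mixed. In such bulk DNA, a change of methylation inside a cell type and a change in the share of that cell type cannot be told apart. Reduced representation bisulfite sequencing (RRBS) reads CpGs near MspI cut sites, where a methylated cytosine is read as C and an unmethylated one as T. Methylation is given as the percent of reads that were methylated.

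Each library held between 23248139 and 45769589 reads summed over CpGs, and the median depth at the 4569 CpGs was 19 to 38 reads per library. A read that covers several CpGs counts once at each in such a sum. The same holds for the reads given below for a region. AME-d0 replicates 1 and 3 stood apart over all CpGs outside islands and shores, with a mean of 62.7% and 64.8% against 67.1% to 70.3% in the other 8 libraries of d0. Of those 8, Con-d0 replicate 5 was highest at 70.3%, with AME-d0 replicate 5 next at 68.1%. Con-d0 replicate 5 was left out only where libraries were left out 1 at a time. AME-d21 replicate 4 went against its label, with 2.88 X-linked reads for every 100 autosomal ones where the other 4 libraries of AME-d21 had 1.53 to 1.55, and with 16.2 RPM on the short arm of Y where they had 189 to 214. Results of the AME groups are therefore also given without AME-d0 replicates 1 and 3 and AME-d21 replicate 4.

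Of the 44 genes, 42 had a CpG island within 1 kb of the TSS, with a median length of 1648.5 bp, against 56.3% of 21911 protein-coding genes, whose islands had a median of 1221 bp. In the 300 bp around the start, from 250 bases before to 50 after, the 35 genes with a RefSeq promoter sequence (build GRCm38.p6) held a median of 19 CpGs, against 11 in 20593 genes. The motif CCGG, which MspI cuts and which reads the same on both strands, was found in 82.9% of these 35 promoters and in 59.0% of all of them.

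Around their start sites the 44 genes were almost free of methylation in every group. The promoter was taken as the TSS ± 1 kb, the upstream flank as 1 to 5 kb upstream, and the gene body as everything more than 1 kb downstream of the TSS. The TSS was the 5' end of the gene in GENCODE. In Pax1, Pax9, Six3, Lhx4, Lhx9, Nkx2-2, Nkx2-5, Dlx1 and Otx2 the RefSeq start lay within the gene body so defined. Promoter values and distances of these genes refer to the GENCODE end. Of 1521 kept promoter CpGs, 99.1% were under 10% methylated in Con-d0 and 97.4% in Con-d21. Lowest were the 558 CpGs from 0 to 500 bp downstream of the TSS, with a mean of 0.80% in Con-d0 and 1.18% in Con-d21. The other genes with a CpG island at the TSS were alike there, with 0.86% and 1.05% over 176971 CpGs. Taken as whole promoters, 97.6% of the 44 genes' promoters with at least 3 kept CpGs were under 10% in Con-d0. Of all promoters with a CpG island 95.3% were. The low level extended beyond the promoter as defined here. Between 3 and 5 kb downstream, 502 CpGs in 27 of the 44 genes averaged 2.47% in Con-d0. In 8 of the 39 Hox genes 140 CpGs averaged 5.55%. In 1902 of the other genes with a CpG island at the TSS 14551 CpGs averaged 44.1%. Between 5 and 10 kb the corresponding means were 2.77%, 3.51% and 52.9%, from 21, 11 and 3133 genes. These means pool CpGs over genes and were not tested against each other. The RefSeq starts of Pax1, Pax9 and Nkx2-5 lie between 3 and 5 kb downstream of the GENCODE end. Those of Six3, Lhx4, Lhx9, Nkx2-2 and Otx2 lie between 5 and 10 kb. How far CpGs around those starts lower the means was not tested.

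**Figure D1:**
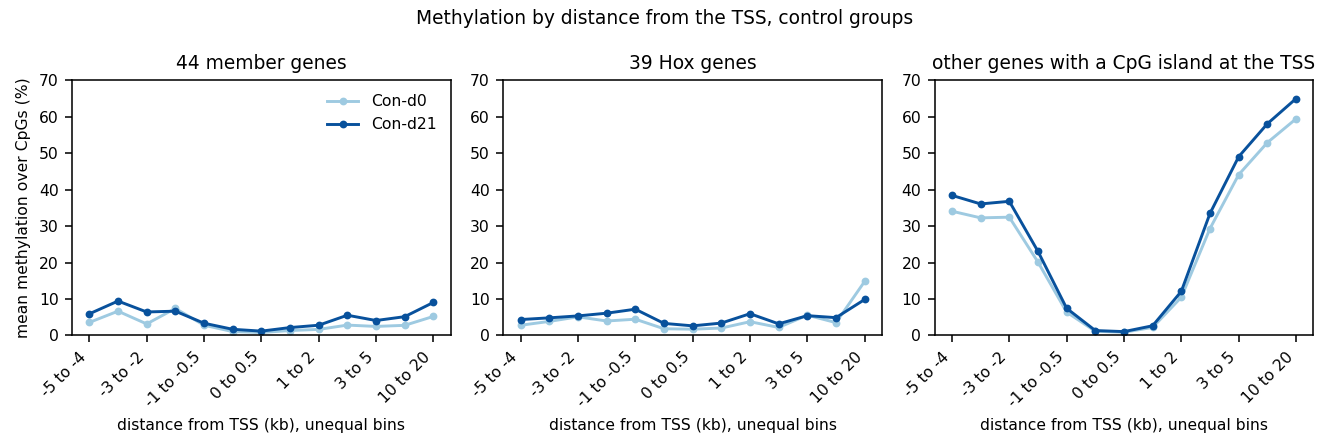
Mean methylation (%, vertical axis) of CpGs by distance from the TSS in kb (horizontal axis, unequal bins, negative upstream) in Con-d0 (light) and Con-d21 (dark), for the 44 genes, the 39 Hox genes and the other protein-coding genes with a CpG island at the TSS. The first 2 panels stay under 15% throughout, and the third climbs to 59.4% in Con-d0 and 65.0% in Con-d21 at 10 to 20 kb.

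Most of the methylation these genes carried lay outside islands. Their 3522 island CpGs averaged 1.49% in Con-d0 and 2.61% in Con-d21. The 705 CpGs in shores, the 2 kb on either side of an island, averaged 5.06% and 7.72%. The 342 CpGs outside both averaged 26.4% and 35.0%, against 68.0% and 75.8% for the 436029 such CpGs of the whole genome. Of those 342, 24.9% were more than 50% methylated in Con-d0 and 35.1% in Con-d21.

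Among the promoters, Pax8, Dlx1 and Olig2 were highest in Con-d0. Pax8, a regulator of thyroid and kidney development, had 14.8% ± 3.5 (SD, n = 5), over 9 kept CpGs only. Dlx1, a forebrain interneuron factor, had 3.73% ± 1.82, and Olig2, which specifies oligodendrocytes and motor neurons, had 3.46% ± 2.17 over 5 CpGs and as few as 18 reads in a library. The lowest were Dlx6 with 0.246% ± 0.226, Dlx4 with 0.251% ± 0.287 and Nkx6-1 with 0.427% ± 0.243. These 3 are at the level of a few reads per library, and Dlx6 rested on as few as 95 reads. The bisulfite conversion rate was not given in the sources used here, so how much of these levels is unconverted cytosine was not tested. Over the promoters of the 44 genes the median was 1.13% in Con-d0 and 1.56% in Con-d21. Over 10920 promoters with a CpG island it was lower, at 0.17% in Con-d0 and 0.18% in Con-d21. In gene bodies the highest were Pax8 with 48.7% ± 4.93, Pax3, a neural crest and muscle progenitor factor, with 26.8% ± 6.39, and Pax2, which acts in kidney and optic nerve, with 24.1% ± 2.02. The lowest were Nkx2-3 with 0.633% ± 0.307, Nkx6-1 with 0.699% ± 0.244 and Lhx8 with 0.786% ± 0.466.

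**Figure D2:**
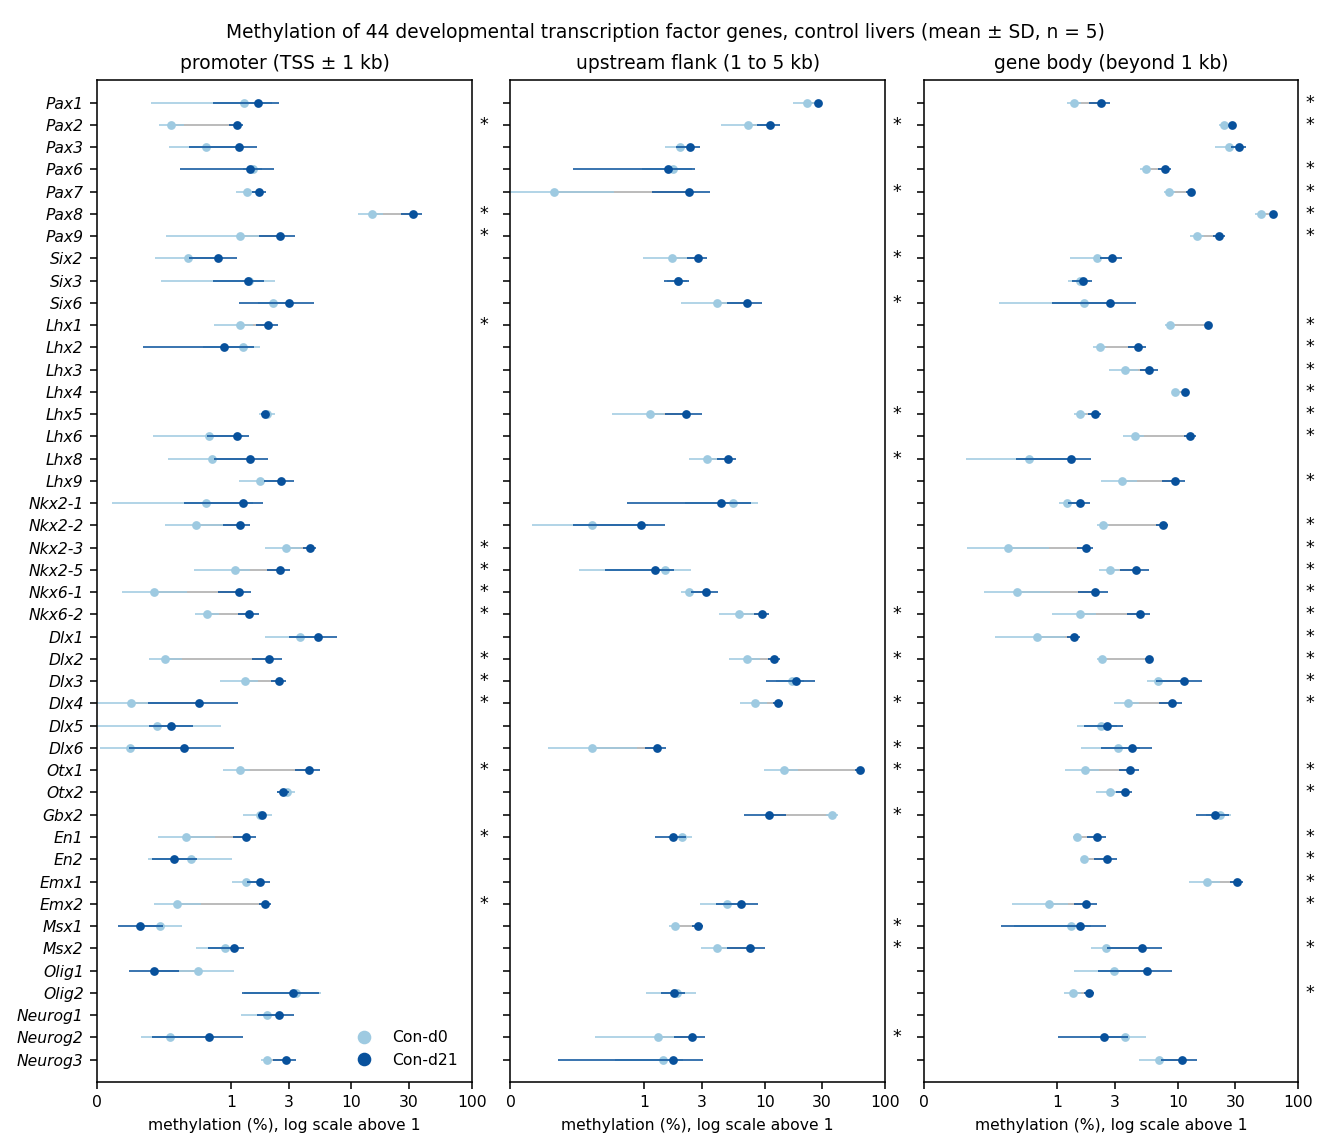
Methylation (%, horizontal axis, linear to 1 and logarithmic above) of the promoter, upstream flank and gene body of each of the 44 genes in Con-d0 (light) and Con-d21 (dark), mean ± SD of 5 libraries, with asterisks for an adjusted p under 0.05. Regions with fewer than 3 kept CpGs are blank. Most promoters stay under 3%, Otx1 and Gbx2 stand out in the flank panel with opposite shifts, and Pax8 lies above the other genes in the promoter and gene body panels.

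The first comparison asked how methylation of these genes changed between birth and weaning in the control offspring. Promoter methylation rose from d0 to d21 in 14 genes and fell in none. The gains were small in all but 1 gene. In the Con groups, Pax8 rose by 17.5 percentage points, Otx1 by 3.24, and the other 12 by 1.67 or less. Of the 44 promoters, 2 had no kept CpG (the pituitary and motor neuron factors Lhx3 and Lhx4), which left 42 tested. Regions were tested with limma on the log2 ratio of methylated to unmethylated reads, 1 read added to each, with Benjamini-Hochberg adjustment over all regions of a class and a threshold of 0.05. The 14 genes were 33.3% of the 42. Over all 18309 promoters tested, 20.8% were called higher and 3.91% lower at d21. The median difference was 0.439 points over the 42 promoters and 0.0609 over all promoters. Only Pax8 changed by 10 points or more, which 9.71% of all promoters did.

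Pax8 showed the largest promoter change. Its promoter, chr2:24474599-24476599 (mm10, minus strand), held 14.3%, 11.1%, 11.9%, 19.2% and 17.5% in Con-d0 and 31.9%, 41.5%, 29.4%, 23.7% and 34.9% in Con-d21. In AME-d0 the values were 11.8%, 11.1%, 11.1%, 9.03% and 17.2%, and in AME-d21 38.4%, 31.7%, 28.9%, 29.8% and 28.9%. Every d21 library was above every d0 library in both environments. The log2 ratio rose by 1.43 ± 0.26 (SE, limma adjusted p = 0.000316) in Con and by 1.71 ± 0.26 (limma adjusted p = 3.96e-05) in AME. As few as 63 reads in a library lay behind these values.

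Otx1, a homeobox gene of the cerebral cortex and sense organs, had the second largest promoter gain, at chr11:22001897-22003897 (minus strand, 30 CpGs). The 5 libraries of Con-d0 lay between 0.931% and 1.60% and those of Con-d21 between 3.60% and 5.79%. The mean rose from 1.19% ± 0.254 to 4.44% ± 1.03 in Con and from 1.24% ± 0.329 to 4.0% ± 0.700 in AME (limma adjusted p = 5.57e-06 and 1.69e-05). The ages did not overlap in either environment.

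Dlx2, which patterns the branchial arches and forebrain, had the best covered of the promoters that rose by more than 1 point, with 70 CpGs at chr2:71545754-71547754 (minus strand) and at least 1767 reads in each library. Its libraries held 0.404%, 0.528%, 0.578%, 0.665% and 0.366% in Con-d0 and 1.87%, 2.20%, 1.77%, 3.05% and 1.52% in Con-d21. The lowest d21 library was thus above the highest d0 library. The log2 ratio rose by 1.98 ± 0.25 (limma adjusted p = 3.91e-06) in Con, and in AME the mean went from 0.558% ± 0.131 to 2.01% ± 0.345 (limma adjusted p = 9.96e-06).

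The remaining named promoters followed the same direction at low levels. Nkx2-5, a heart regulator, went from 1.07% ± 0.354 to 2.54% ± 0.563 in Con (limma adjusted p = 0.000833), Emx2, a regulator of cortex and urogenital development, from 0.599% ± 0.173 to 1.93% ± 0.233 (limma adjusted p = 0.000162), and Dlx3, a skin, tooth and placenta factor, from 1.30% ± 0.380 to 2.49% ± 0.351 (limma adjusted p = 0.00656). These 3 had no overlap between the ages in Con, and the Nkx2-5 call was lost with the promoter taken within 500 bp of the TSS (limma adjusted p = 0.573). Nkx2-3, a factor of gut mesenchyme and spleen, with 2.84% ± 0.939 against 4.51% ± 0.526, and Pax9, a tooth and pharyngeal pouch factor, with 1.19% ± 0.672 against 2.57% ± 0.852, passed more narrowly (limma adjusted p = 0.0387 and 0.0323), and in both the ages overlapped. The Nkx2-3 call was lost without any 1 of Con-d0 replicates 1, 2 and 5 or Con-d21 replicates 1, 2, 3 and 5, and the Pax9 call without any 1 of Con-d0 replicates 3, 4 and 5 or Con-d21 replicates 2, 3 and 4, with limma adjusted p of up to 0.162 and 0.305 over the alternatives. Pax2, Lhx1, Nkx6-1, Nkx6-2, Dlx4 and En1 made up the rest of the 14. Without Con-d21 replicate 3, 9 promoters rose in place of 14.

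In the AME groups 16 promoters rose and none fell, which is 38.1% of the 42, where 24.0% of all promoters rose, 3.56% fell and 11.6% changed by 10 points or more. Of the 42 genes, 13 were called in both environments, Dlx4 in Con alone and Dlx1, Olig2 and Pax7 in AME alone. Olig2 rested on few reads and was lost in 9 alternatives, among them those without AME-d0 replicate 2, 4 or 5 or AME-d21 replicate 4 or 5 (limma adjusted p up to 0.506), and Dlx1 was lost in 4, among them that without AME-d0 replicates 1 and 3 (up to 0.104). The Pax9 call in AME was lost without AME-d0 replicate 4 or AME-d21 replicate 1 (limma adjusted p = 0.0516 and 0.0624). It was also lost with the mean of CpG percents in place of summed reads (limma adjusted p = 0.131). These counts do not show a difference between the environments, and the interaction, the test of that difference, was called for no gene. Without AME-d0 replicates 1 and 3 the 16 became 9, while over all promoters those called higher went from 4386 to 3179. Leaving out AME-d21 replicate 4 as well also gave 9.

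Upstream flanks held both the largest gain and the only loss. A flank could be tested in 28 genes. In Con 14 rose from d0 to d21 and Gbx2 fell, which is 50.0% and 3.57% of the 28, the same as or close to the 50.0% and 5.60% of all 9288 flanks tested. The median difference was 1.13 points over the 28 and 5.34 over all flanks. A change of 10 points or more was seen in 2 of the 28, Otx1 and Gbx2, and in 32.1% of all flanks. In AME 13 rose and Gbx2 fell, where 55.7% of all flanks rose, 5.36% fell and 38.1% changed by 10 points or more. Without AME-d0 replicates 1 and 3 the 14 calls in AME became 9, and without Con-d21 replicate 4 the 15 calls in Con became 9.

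The Otx1 flank, chr11:22003898-22007897 with 19 kept CpGs, held 9.06%, 15.9%, 14.7%, 11.3% and 20.8% in Con-d0 and 67.5%, 54.1%, 59.3%, 62.8% and 66% in Con-d21. In AME-d0 it held 13.7%, 11.9%, 11.8%, 15.1% and 18.9%, and in AME-d21 60.8%, 68.4%, 61.2%, 66% and 62.2%. All 10 libraries of d21 were far above all 10 of d0, the lowest d21 value being 54.1% and the highest d0 value 20.8%. The log2 ratio rose by 3.32 ± 0.24 in Con and 3.4 ± 0.24 in AME (limma adjusted p = 2.08e-09 and 8.94e-10).

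Within this flank, called CpGs fell into 2 groups, delimited after their values were seen as 4 or more called CpGs of a gene no more than 200 bp apart, so their values are a description. The nearer one, chr11:22005444-22005726, lay at -2828 to -2547 bp from the TSS in an island shore that no annotated gene overlaps. Its 5 CpGs went from 18.6% ± 5.35 in Con-d0 to 79.6% ± 3.47 in Con-d21 and from 20.2% ± 3.10 in AME-d0 to 80.7% ± 7.07 in AME-d21. The farther one, chr11:22007006-22007228, overlapped a coding exon of Ehbp1, the neighboring gene, and its 8 CpGs went from 13.0% ± 9.08 to 70.1% ± 16.5 in Con and from 13.9% ± 4.92 to 75.7% ± 3.25 in AME, where all 8 were called, while none was called in Con. The sequences of both are shown because they carry the largest gain among the 44 genes. They are from GRCm38 (mm10) on the minus strand, with 5 bases added at each end, at chr11:22005439-22005731 and chr11:22007001-22007233, and capitals mark the kept CpGs, which are all the CpGs they hold.
Otx1 near group: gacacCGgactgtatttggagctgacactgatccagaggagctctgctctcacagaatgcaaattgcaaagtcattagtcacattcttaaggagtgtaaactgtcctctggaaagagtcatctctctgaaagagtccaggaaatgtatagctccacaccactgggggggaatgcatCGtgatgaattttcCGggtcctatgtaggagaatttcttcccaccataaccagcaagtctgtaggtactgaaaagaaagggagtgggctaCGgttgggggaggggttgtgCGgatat
Otx1 far group: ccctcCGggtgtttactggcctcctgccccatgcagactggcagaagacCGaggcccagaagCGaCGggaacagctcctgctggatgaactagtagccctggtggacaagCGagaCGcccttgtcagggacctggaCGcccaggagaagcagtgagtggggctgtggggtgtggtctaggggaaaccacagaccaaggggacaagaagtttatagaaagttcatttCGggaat

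Gbx2, which sets the boundary between midbrain and hindbrain, went the other way. Its flank, chr1:89932180-89936179 with 15 kept CpGs, held 33.4%, 37.7%, 42.0%, 37.7% and 31.9% in Con-d0 and 10.4%, 14.1%, 5.2%, 15.4% and 9.03% in Con-d21. In AME-d0 it held 31.6%, 41.4%, 32.9%, 36.1% and 42.8%, and in AME-d21 9.54%, 4.35%, 9.66%, 13.8% and 11.3%. Again the ages were fully apart, with d0 on top. The log2 ratio fell by 2.31 ± 0.31 in Con and by 2.49 ± 0.31 in AME (limma adjusted p = 4.39e-06 and 1.39e-06).

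Of the 15 CpGs in the Gbx2 flank, 12 lay at chr1:89932481-89932744, at -1564 to -1302 bp from the TSS, in an island shore and inside an exon of the noncoding gene D130058E05Rik. They went from 42.5% ± 4.79 to 12.5% ± 4.75 in Con and from 42.2% ± 6.88 to 10.7% ± 3.88 in AME. The Gbx2 promoter itself did not pass the test at 1.73% ± 0.469 and 1.79% ± 0.104 (limma adjusted p = 0.861), and the 18 kept CpGs in the 250 bp before its RefSeq start held 0.614% ± 0.549 and 1.16% ± 0.474. The shore group and this promoter are shown together, since less than 2 kb separates CpGs that lost methylation from CpGs that had next to none. Both are on the minus strand, at chr1:89932476-89932749 and chr1:89931177-89931426, with kept CpGs in capitals.
Gbx2 shore group: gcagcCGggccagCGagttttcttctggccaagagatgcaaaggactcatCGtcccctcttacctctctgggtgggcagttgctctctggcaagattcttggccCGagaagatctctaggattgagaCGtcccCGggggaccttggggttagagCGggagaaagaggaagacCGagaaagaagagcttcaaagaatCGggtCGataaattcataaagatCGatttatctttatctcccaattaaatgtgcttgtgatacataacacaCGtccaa
Gbx2 promoter: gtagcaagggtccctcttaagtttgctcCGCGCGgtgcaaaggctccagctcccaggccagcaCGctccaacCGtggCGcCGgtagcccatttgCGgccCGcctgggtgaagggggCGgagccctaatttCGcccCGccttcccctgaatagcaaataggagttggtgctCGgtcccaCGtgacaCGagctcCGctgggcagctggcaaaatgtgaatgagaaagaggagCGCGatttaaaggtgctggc

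The other named flanks changed by 5 points or less in Con. Dlx2 rose from 7.08% ± 2.06 to 12.1% ± 1.40 (limma adjusted p = 0.00347) and Dlx4, a placental and branchial arch factor, from 8.31% ± 2.13 to 13.0% ± 1.31 (limma adjusted p = 0.0150). Both had no overlap between the ages in Con. Pax2, Msx2, Nkx6-2, Six6 and Pax7 rose by 3.72, 3.45, 3.39, 3.16 and 2.01 points with limma adjusted p of 0.0201, 0.0140, 0.0268, 0.0236 and 0.000945. Of these calls in Con, Dlx4 was lost without Con-d0 replicate 5 and Msx2 without Con-d21 replicate 4 (limma adjusted p = 0.0508 and 0.05005). Pax2 was lost without Con-d0 replicate 1 or 4 or Con-d21 replicate 4 (limma adjusted p up to 0.0748). Six6 was lost without Con-d0 replicate 2, 4 or 5 or Con-d21 replicate 3 or 4 (limma adjusted p up to 0.0669). Nkx6-2 was lost without Con-d0 replicate 1 or 2 or Con-d21 replicate 3 or 4 (limma adjusted p up to 0.0843). With the mean of CpG percents in place of summed reads Nkx6-2 was lost as well (limma adjusted p = 0.0893). The Pax7 call, over 4 CpGs, was lost with a minimum of 5 reads per CpG (0.0710). Msx2 acts in skull and limb development, Nkx6-2 in oligodendrocytes and the neural tube, Six6 in retina and pituitary, and Pax7 in muscle stem cells. In AME the largest of these were Nkx6-2, from 5.81% ± 1.23 to 13.7% ± 5.28, Dlx4, from 8.03% ± 2.02 to 15.6% ± 4.78, and Pax2, from 6.43% ± 0.820 to 13.7% ± 0.660. The Olig1 flank, with 2 CpGs, was not tested and stood at 76.1% ± 10.4 in Con-d0.

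**Figure D3:**
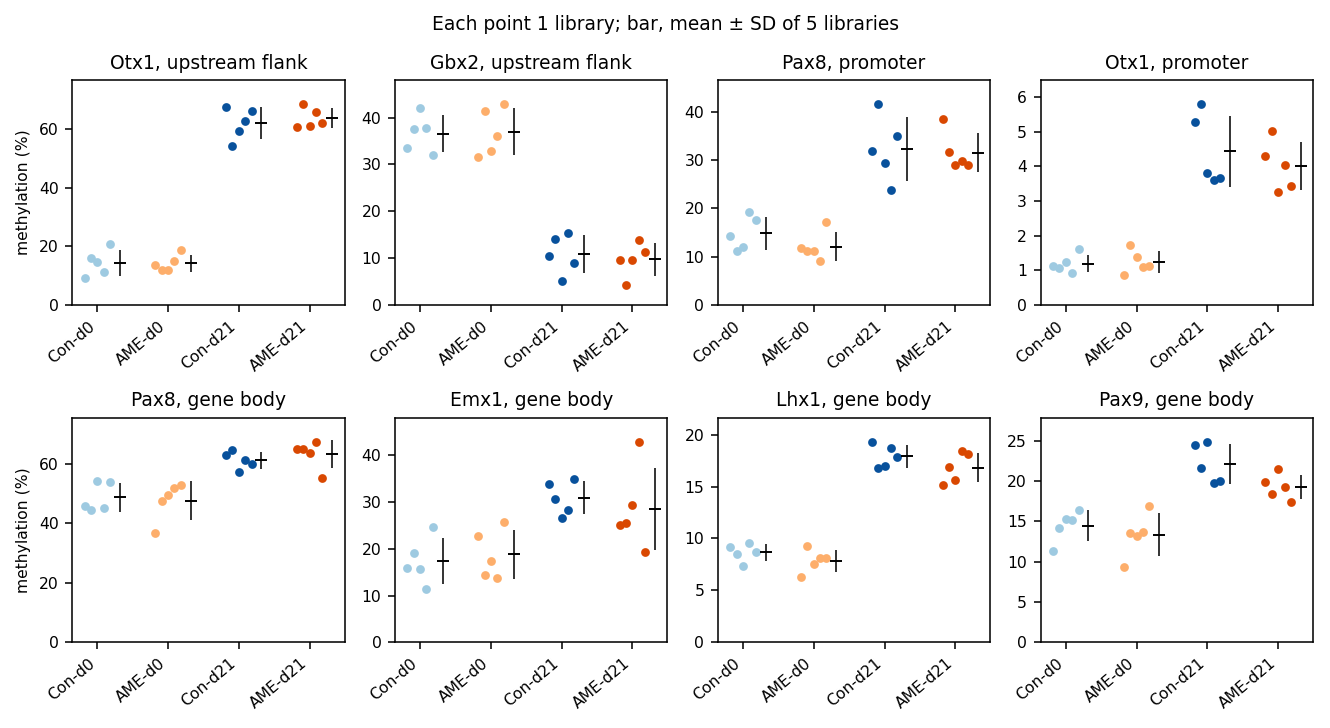
Methylation (%, vertical axes from 0) in each of the 20 libraries for 8 regions, with 1 point per library by group and the bar giving mean ± SD of 5. The d21 libraries of Otx1 lie above and those of the Gbx2 flank below all d0 libraries, while in the Emx1 gene body 1 library of AME-d21 stands at 42.9% and another at 19.4%.

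Gene bodies were the class in which these genes changed most often. Of 43 gene bodies tested (Neurog1 had 1 CpG), 30 rose from d0 to d21 in Con and none fell, which is 69.8%, where 60.1% of all 16156 gene bodies rose and 5.06% fell. In points the gains were smaller than over all gene bodies, with a median of 1.97 against 6.43, and 2 of the 43 changed by 10 points or more against 30.4% of all. On the log2 scale, where a given gain counts for more near 0, the medians were 0.70 and 0.63. In AME 32 rose and none fell, which is 74.4%, where 68.7% of all rose, 4.03% fell and 40.2% changed by 10 points or more. Called in both environments were 28 of the genes. Without AME-d0 replicates 1 and 3 the 32 became 29, and without AME-d21 replicate 4 in addition 27.

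In Con, Emx1 and Pax8 gained most in points, and in AME Pax8 and Pax3. Emx1, a marker of the dorsal forebrain, held 16.0%, 19.1%, 15.7%, 11.4% and 24.7% in Con-d0 and 33.9%, 30.6%, 26.6%, 28.4% and 35.0% in Con-d21 over 10 CpGs (limma adjusted p = 0.00190). In AME it went from 18.8% ± 5.24 to 28.5% ± 8.81 with overlapping ages (limma adjusted p = 0.0189). That call was lost without AME-d0 replicate 2, AME-d0 replicate 4 or AME-d21 replicate 4 (limma adjusted p = 0.0504, 0.0551 and 0.0691) and without the 3 libraries that stood apart (0.0760). Pax8 rose from 48.7% ± 4.93 to 61.2% ± 2.84 in Con and from 47.7% ± 6.52 to 63.2% ± 4.74 in AME (limma adjusted p = 0.00191 and 0.000211).

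Of the 8 LIM-homeobox genes, 7 gene bodies rose in Con and that of Lhx8 was not called. Lhx1, needed for head and kidney formation, held 9.15%, 8.51%, 7.39%, 9.54% and 8.74% in Con-d0 and 19.3%, 16.8%, 16.9%, 18.7% and 17.8% in Con-d21, over 100 CpGs at chr11:84518284-84524534 and at least 2200 reads per library. In AME it went from 7.86% ± 1.07 to 16.8% ± 1.43, and the limma adjusted p was 1.50e-07 in Con and 6.46e-08 in AME. Lhx6, a factor of cortical interneurons, rose from 4.38% ± 0.852 to 12.6% ± 1.49 and in AME from 4.04% ± 0.884 to 14.0% ± 1.75 (limma adjusted p = 1.22e-07 and 1.24e-08). In both genes the ages were fully apart in both environments. Lhx9, which acts in the gonad and limb, rose from 3.44% ± 1.15 to 9.39% ± 2.05 in Con (limma adjusted p = 0.000102) and from 3.63% ± 1.01 to 6.12% ± 2.97 in AME (limma adjusted p = 0.0308), with overlap in AME.

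Nkx2-2, a regulator of ventral neural tube and pancreatic beta cells, rose from 2.40% ± 0.266 to 7.47% ± 0.824 in Con and from 2.08% ± 0.428 to 7.92% ± 0.831 in AME over 105 CpGs (limma adjusted p = 2.07e-08 and 1.75e-09). Pax9 rose from 14.5% ± 1.94 to 22.1% ± 2.45 and from 13.3% ± 2.67 to 19.3% ± 1.53 (limma adjusted p = 0.000476 and 0.00133), and Dlx4 from 3.86% ± 0.893 to 8.89% ± 1.90 in Con (limma adjusted p = 7.65e-06). In AME, Pax3, with 25.7% ± 4.64 against 37.1% ± 7.18, Dlx3, with 5.49% ± 0.720 against 14.5% ± 1.58, and Pax2, with 22.5% ± 1.70 against 28.6% ± 0.992, were further among the largest gains (limma adjusted p = 0.00906, 7.26e-06 and 0.000710). The Pax3 call was lost without the 3 libraries that stood apart (limma adjusted p = 0.0749). Of the gene bodies of Six2, Six3 and Six6, which act in kidney, forebrain and eye, none of 3 was called in Con, with a median difference of 0.726 points.

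At the level of single CpGs, 46 of the 4569 rose and 5 fell from d0 to d21 in Con, called at an unadjusted p under 0.001 in a quasi-binomial test and a difference of at least 10 points. That is 1.01% and 0.109%, where 2.48% of all 922846 CpGs rose and 0.730% fell. In AME 46 rose and 7 fell, where 2.56% of all rose and 0.553% fell. All CpGs that fell belonged to Gbx2. The 51 calls in Con lay in 12 genes and the 53 in AME in 14, and 29 CpGs were called in both. Of the 51, 39 lay in gene bodies, 11 in upstream flanks and 1 in a promoter. Nkx2-2 held 11 of them, Pax7 8, Otx1 7, Lhx1 6 and Gbx2 5. The 53 calls in AME became 18 without AME-d0 replicates 1 and 3 (15 higher and 3 lower), while over all CpGs those called higher went from 23608 to 7929, and they became 39 without AME-d21 replicate 4.

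The 8 neighboring CpGs of Nkx2-2 at chr2:147180792-147180937 were called in both environments. They lie in an island inside an intron, 13.3 to 13.5 kb downstream of the GENCODE TSS. As a description, they held 7.14%, 5.47%, 10.5%, 5.93% and 6.93% in Con-d0 and 42.2%, 36.7%, 45.6%, 41.3% and 43.7% in Con-d21, while AME went from 6.28% ± 0.980 to 38.6% ± 4.83. Between the TSS and 10 kb downstream the kept CpGs of the same gene stayed at or under 18.4% in Con-d21. In Lhx1, 16 CpGs at chr11:84519879-84520211, in an island over the start of the last exon, which is coding there, and the intron before it, went from 18.9% ± 5.28 to 44.4% ± 3.70 in Con and from 17.2% ± 2.52 to 39.9% ± 2.93 in AME. The sequences of both places are given because their CpGs gained methylation inside an island, where 95.3% of the 44 genes' CpGs were under 10% in Con-d21. They are on the minus strand at chr2:147180787-147180942 and, for the first 300 bases by coordinate of the Lhx1 group, chr11:84519874-84520173, with kept CpGs in capitals.
Nkx2-2 intron group: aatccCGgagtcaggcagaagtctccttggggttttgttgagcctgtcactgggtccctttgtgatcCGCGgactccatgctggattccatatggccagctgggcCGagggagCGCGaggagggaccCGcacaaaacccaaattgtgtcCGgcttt
Lhx1 last exon group: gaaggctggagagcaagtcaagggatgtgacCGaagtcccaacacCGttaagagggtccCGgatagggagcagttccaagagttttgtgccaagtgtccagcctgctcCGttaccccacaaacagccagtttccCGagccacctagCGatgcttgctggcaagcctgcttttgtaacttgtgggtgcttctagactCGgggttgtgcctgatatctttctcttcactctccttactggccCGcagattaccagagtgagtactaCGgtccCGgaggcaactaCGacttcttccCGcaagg

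**Figure D4:**
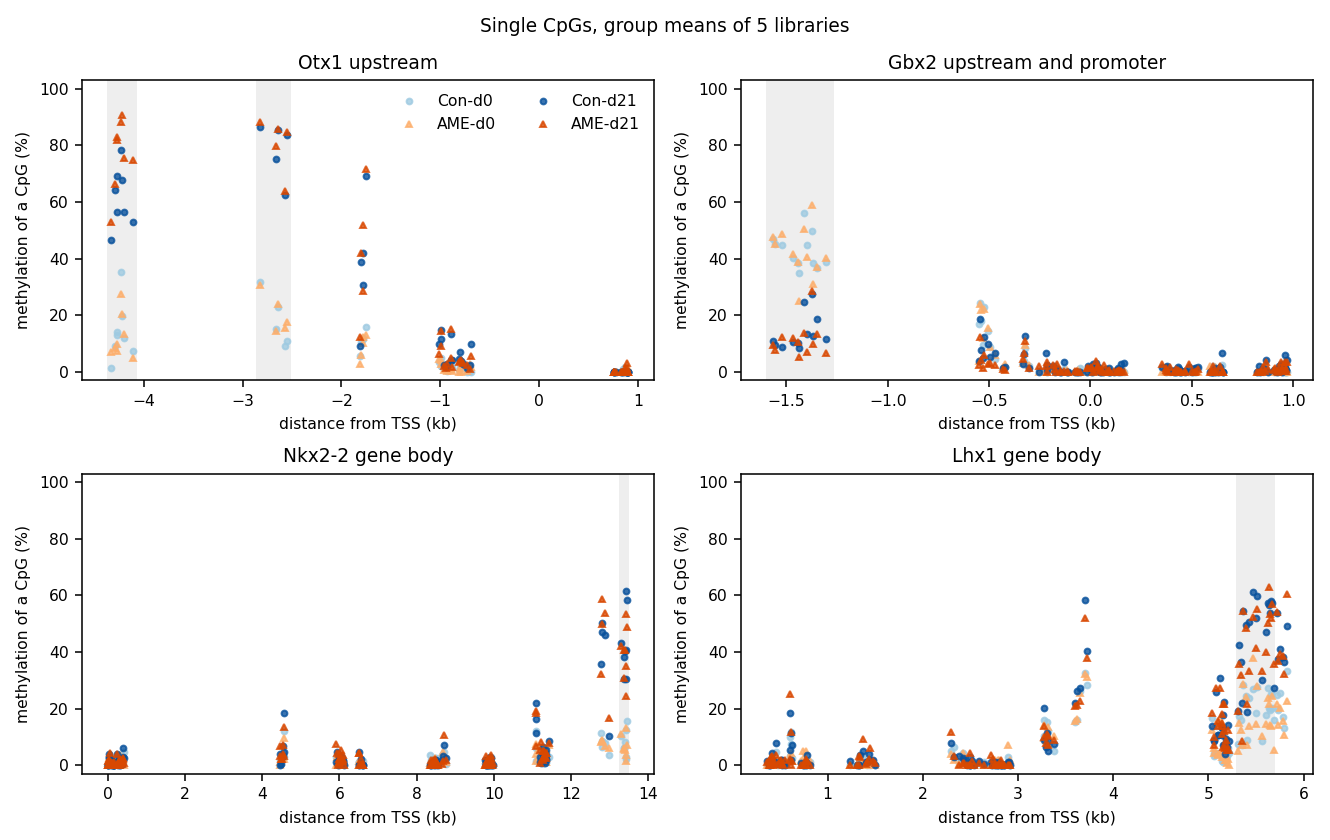
Methylation (%, vertical axis) of single kept CpGs by distance from the TSS (kb, horizontal axis) at Otx1, Gbx2, Nkx2-2 and Lhx1, as group means of the 5 libraries, with Con as circles, AME as triangles, d0 light and d21 dark. Gray bands mark the groups of called CpGs described in the text. The d0 and d21 points part inside the bands and run together near 0 at the start sites.

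A last group, 4 CpGs of Pax9 at chr12:56709835-56709915 across the end of the coding sequence and the start of the 3' UTR, was called in Con alone. It held 46.2% ± 4.59 in Con-d0, 78.8% ± 7.91 in Con-d21, 45.9% ± 7.09 in AME-d0 and 67.9% ± 2.69 in AME-d21. The d21 ranges of the 2 environments touched, with 71.2% the lowest in Con-d21 and 71.8% the highest in AME-d21. The 71.8% was that of AME-d21 replicate 4, and the other libraries of AME-d21 held 65.0% to 69.4%. None of the 4 CpGs was called for AME-d21 vs. Con-d21.

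Over the 3 region classes, 5 genes (Pax2, Nkx6-2, Dlx2, Dlx4 and Otx1) were called in all 3 in Con. A further 12 genes were called in 2 and 20 in 1. The 7 called in none were Pax3, Six3, Nkx2-1, Dlx5, Olig1, Neurog1 and Neurog3. Lhx3, Lhx4 and Neurog1 were tested in 1 class only. The number of classes called was not counted over all genes, so these counts have no background. Over all genes 20.8% of promoters, 50.0% of flanks and 60.1% of gene bodies rose in Con. Nkx2-1 patterns thyroid, lung and forebrain, Olig1 acts beside Olig2 in oligodendrocytes, and the Neurog genes start neuron and, for Neurog3, endocrine pancreas formation. By family, promoters rose in 4 of 6 Nkx, 3 of 6 Dlx, 3 of 7 Pax, 3 of 7 Otx, Gbx, En and Emx and 1 of 6 Lhx genes, and in none of Six2, Six3, Six6, the 2 Msx and the 5 Olig and Neurog genes. Some of these genes are neighbors and share a chromosomal domain. Dlx5 and Dlx6 lie 9237 bp apart, Dlx1 and Dlx2 9427 bp, and Dlx3 and Dlx4 15151 bp, so they are not independent observations. Dlx2 rose in all 3 classes in Con. The flank of its neighbor Dlx1 had no kept CpG, its promoter was not called in Con, and its gene body rose, at 0.844% ± 0.312 against 1.36% ± 0.171 (limma adjusted p = 0.00902).

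The second comparison asked whether the maternal environment changed methylation of these genes at birth or at weaning. No promoter, flank or gene body of the 44 genes was called for AME-d0 vs. Con-d0 or AME-d21 vs. Con-d21 by limma, and the same held for every gene in each class (0% of all regions at either age). At an unadjusted p under 0.05, 3 of 42 promoters passed at d0 and 2 at d21, against 5.33% and 5.36% of all promoters. For flanks it was 1 of 28 at each age, against 5.92% and 5.29% of all flanks, and for gene bodies 1 and 3 of 43, against 7.81% and 4.58% of all gene bodies. No single CpG of the 4569 was called at either age, where 0.000542% of all CpGs were called at d0 and 0.000217% at d21. At an unadjusted p under 0.05 there were 80 such CpGs at d0 and 97 at d21, or 1.75% and 2.12%, near the 1.68% and 1.61% of all CpGs. The likelihood-ratio test without overdispersion called 1 at d0 and 3 at d21, which is 0.0219% and 0.0657% of the 4569, against 0.198% and 0.149% of all CpGs. With limma per CpG 0 were called at both ages, against 0.0833% and 0.0613% of all. At an unadjusted p under 0.05, limma per CpG passed 4.42% and 5.23% of the 4569, against 5.14% and 4.93% of all CpGs. The quasi-binomial test was thus the stricter, and its lack of calls does not show a lack of difference.

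The largest differences between environments were below the largest differences between ages in each class. In some genes they exceeded the gene's own change with age in Con, which was 3.39 points at the Nkx6-2 flank and 0.347 at the Pax7 promoter. At d0 they were, among promoters, 2.75 points lower in AME for Pax8, 2.28 lower for Olig2 and 1.5 lower for Dlx1 (limma adjusted p = 0.956, 0.877 and 0.938). Among flanks Nkx2-1 differed by -2.72, Msx2 by 1.58 and Six6 by -1.32 points, and among gene bodies Pax2 by -1.68, Gbx2 by -1.47 and Emx1 by 1.40 points, AME minus Con. At d21 the promoter differences were 1.16 points for Nkx2-3, 0.788 for Pax7 and -0.770 for Pax8. Flanks differed by 4.17 for Nkx6-2, 2.73 for Pax2 and 2.65 for Dlx4, and gene bodies by 4.77 for Pax3, -4.49 for Gbx2 and 3.35 for Dlx3. None of these passed, with a lowest limma adjusted p of 0.736 over the 18 values. Without AME-d21 replicate 4, the d21 differences became 1.95 points for the Nkx6-2 flank, 1.47 for the Dlx4 flank, 2.07 for the Pax3 gene body and -0.330 for the Pax8 promoter. Without AME-d0 replicates 1 and 3, the d0 differences of the gene bodies became -0.636 for Pax2, -2.73 for Gbx2 and 0.532 for Emx1. The other 11 moved by less than 1.5 times.

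**Figure D5:**
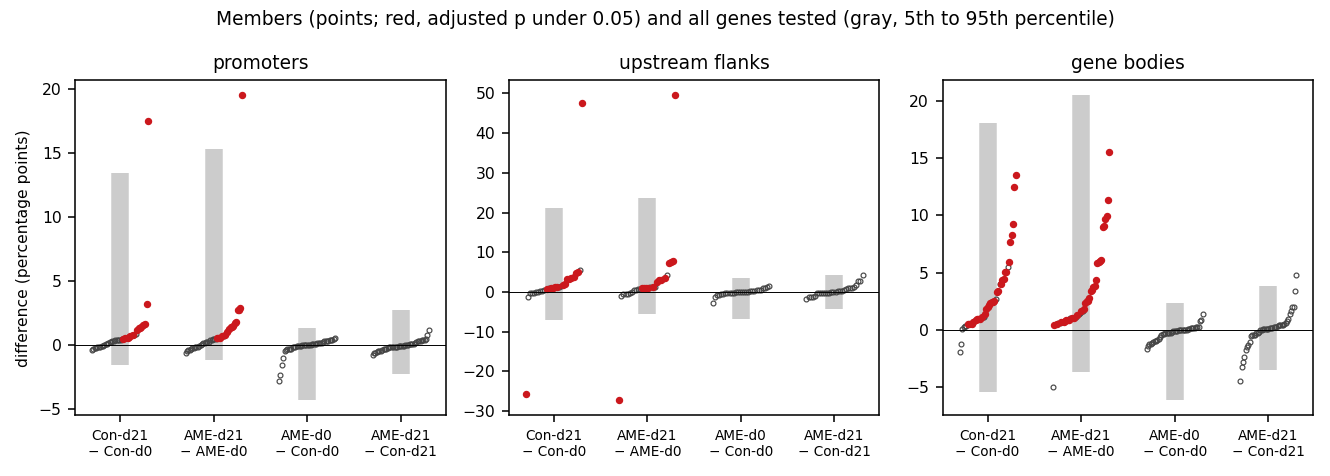
Difference in methylation (percentage points, vertical axis) of each tested gene of the 44 for the 4 comparisons, in promoters, upstream flanks and gene bodies, with red points for an adjusted p under 0.05 and open points otherwise. Gray bars span the 5th to the 95th percentile of all genes tested. Red points occur in both age comparisons and in neither environment comparison.

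In 3 promoters the 5 libraries of 1 environment lay entirely on one side of the other 5. Msx2 was lower in AME at d0, with 0.462%, 0.688%, 0.330%, 0.481% and 0.682% against 1.23%, 0.704%, 1.07%, 0.769% and 0.993% (limma adjusted p = 0.854). Pax7 was higher in AME at d21, with 2.94%, 2.28%, 2.56%, 2.45% and 2.29% against 1.71%, 1.99%, 1.49%, 1.49% and 1.90% (limma adjusted p = 0.930). Gbx2 was lower in AME at d21, with 1.55%, 1.24%, 1.06%, 0.941% and 1.29% against 1.84%, 1.75%, 1.79%, 1.65% and 1.93% (limma adjusted p = 0.930). These are 1 of 42 promoters at d0 and 2 of 42 at d21, where 0.797% and 0.661% of all promoters were apart in this way. No flank or gene body of the 44 genes was, where 0.926% and 0.635% of all flanks and 1.30% and 0.706% of all gene bodies were apart at d0 and d21. The differences in these 3 promoters were under 1 point, and none was called.

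Whether the change with age differed between environments was tested as an interaction. It was called for none of the 113 tested regions of the 44 genes and for 0% of all promoters, flanks and gene bodies, with a lowest limma adjusted p of 0.821 among the 44 genes. At an unadjusted p under 0.05 there were 2 promoters, 2 flanks and 3 gene bodies, which is 4.76%, 7.14% and 6.98% of those tested, against 4.97%, 5.62% and 6.00% of all. The Pax7 promoter rose by 1.41 points in AME and had a difference of 0.347 points in Con (limma adjusted p of the interaction = 0.943), and the Dlx3 gene body rose by 9.06 points in AME and 4.42 in Con (limma adjusted p = 0.821).

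Other gene lists set these values in context, as counts beside the background already given. Of 39 Hox genes, the clustered relatives of the 44, 32 promoters were tested, of which 17 rose and none fell in Con, with a median difference of 1.03 points. Of 30 other homeobox and bHLH relatives, such as Isl1 and Neurod1, 10 of 24 tested promoters rose and none fell. By contrast, of 20 liver transcription factors, such as Hnf4a, 1 of 13 tested promoters rose and 5 fell. Of 21 Polycomb and Trithorax subunits, the complexes that keep genes off or on, 2 of 19 promoters rose, and of 9 DNA methylation enzymes none of 6 was called. Over all 10920 promoters with a CpG island, 12.2% rose in Con. Gene bodies did not divide the lists in this way. In Con, 14 of 29 Hox gene bodies rose and 5 fell, and 14 of 25 of the other relatives rose and 0 fell. Of the liver transcription factors, 11 of 18 gene bodies rose and 3 fell, where 30 of 43 of the 44 genes rose.

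Marker promoters of liver cell types moved with age as well. Of 10 hepatocyte genes 3 promoters could be tested, and all 3 fell in Con and in AME, from library means of 59.8% to 62.0% in Con-d0 to 19.3% to 30.5% in Con-d21 and from 54.2% to 60.2% in AME-d0 to 22.9% to 29.3% in AME-d21. Of 12 markers of blood progenitors, myeloid and erythroid cells 7 were tested and 6 rose in Con and 7 in AME, from 26.9% to 29.1% in Con-d0 to 51.5% to 59.3% in Con-d21 and from 21.6% to 28.3% in AME-d0 to 52.0% to 59.9% in AME-d21. In Con, 2 of 3 endothelial, 2 of 5 stellate and none of 2 cholangiocyte marker promoters rose. How far the mix of cells contributed to the rise and fall at Otx1, Gbx2, Pax8 and the other genes was not tested.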

How the data were processed

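Groups and replicate numbers came from the sample labels. The authors deposited, for each library, counts of methylated and unmethylated reads per CpG, not normalized, and the deposited percent is their ratio. According to the submitters' processing notes, Bismark, BWA, Trim Galore and FastQC were used with build mm10, without versions. The 44 genes, the gene lists and the tests were chosen with earlier results of these data known. Positions that are not a CG in GRCm38 were left out. Genes came from GENCODE M21, with the TSS at the 5' end of the gene. CpG islands were merged 500 bp windows whose GC content reached 55% and whose CpG ratio (observed over expected) reached 0.65. Reads were summed over the kept CpGs of a region, and regions with at least 3 CpGs were fitted with limma 3.58.1 in R 4.3.3 over the 4 groups. Single CpGs were tested with a quasi-binomial F test, overdispersion floored at 1 (Python 3.11.15, numpy 2.4.6, scipy 1.17.1). The region and CpG tests were also run on simulated counts in which only Con-d21 was shifted. Those runs do not measure how well the tests find small differences between environments. Alternatives were other coverage minimums, promoter definitions, added reads, the mean of CpG percents, CpG tests and left-out libraries. Named genes were, per comparison and class, up to 8 called genes in each direction with the largest difference, and the 3 largest where fewer than 3 passed. The limma p-values of regions rest on the spread between libraries within groups, pooled over the 4 groups and drawn toward that of all regions of the class. The quasi-binomial p-values rest on the libraries of the 2 groups compared. There were 5 litters per group per the study's methods. Read counts cover counting error only.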

Additional observations from a re-analysis of the deposited data

Results flagged for a closer look

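In groups of 5, a library was singled out where its gap to the nearest other, divided by the range, was above Dixon's 95% critical value. This held for 8 of 160 groups of values, and chance gives about 1 in 20. AME-d21 replicate 4 had 2.88 X-linked reads for every 100 autosomal ones against 1.53 to 1.55, and 16.2 RPM on the short arm of Y against 189 to 214. The Pax9 promoter was at 5.70% in AME-d21 replicate 1, against 1.32% to 2.29% in the other 4 libraries. The Dlx3 promoter was at 0.643% in Con-d0 replicate 4, against 1.34% to 1.56%, and at 1.88% in Con-d21 replicate 2, against 2.56% to 2.77%. The Pax2 upstream flank was at 7.83% in AME-d0 replicate 3, against 5.81% to 6.39%, and that of Dlx4 at 11.5% in AME-d0 replicate 4, against 6.54% to 7.82%. The near Otx1 group of CpGs was at 25.7% in AME-d0 replicate 5, against 18.2% to 19.6%.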

How the results depend on the processing

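Depth limits the values under 1%, where a few reads decide a promoter, and single CpGs, at 19 to 38 reads. For AME at d0 and AME at d21, every alternative gave 0 called members in promoters, flanks and gene bodies, and the interaction 0. Of 50 calls named, 33 held under every alternative and none reversed.

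Without AME-d0 replicates 1 and 3 the calls with age in AME went from 16 to 9 (promoters), 14 to 9 (flanks) and 53 to 18 (CpGs). Without those and AME-d21 replicate 4, an alternative chosen after seeing the data, promoters and flanks gave 9 each. Requiring 10 reads in all 20 libraries left 9 flank calls in Con, and 20 reads per CpG left 30 CpG calls in AME. Per CpG, the likelihood-ratio test called 180 in Con, 191 in AME, 1 for AME at d0 and 3 for AME at d21. An adjusted p under 0.05 called 93 and 91, and limma 149 and 139. Leaving out 1 library at a time gave 9 to 14 promoters, 9 to 15 flanks, 26 to 31 gene bodies and 35 to 41 CpGs in Con, and 13 to 17, 12 to 16, 29 to 34 and 36 to 41 in AME. With promoters cut to 500 bp on either side of the TSS, Lhx2 fell in AME, as 1 of 11 called.

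Over promoters, same-numbered libraries did not deviate together, and neither did others (all correlations under 0.1). This does not exclude a pairing by number, since most promoters were under 1% methylated, where a few reads decide a value. With the replicate block, 13 promoters, 14 flanks and 29 gene bodies were called in Con and 16, 14 and 32 in AME. For CpGs with 10 reads in all 20 libraries, limma with the replicate block called 115 in Con, 99 in AME, 0 for AME at d0 and 1 for AME at d21, and without it 122, 108, 0 and 0, an alternative added after seeing the data.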
